A study of Mus musculus with 4 samples.

Results

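The antiviral interferon-stimulated genes described here are 29 genes that type I interferon is known to induce, together with factors that carry its signal to the nucleus. They were picked by symbol, not by a measured value, but with earlier results of these data known. Each matched exactly 1 of the 24625 genes counted in the libraries. RNA came from peritoneal macrophages of C57BL/6 mice (C57BL/6J in the series' design) fed standard chow, the control diet, or a high-fat diet with 60% of its energy as fat, for 12 weeks. All mice, those on the control diet included, had received 3% thioglycollate medium in the peritoneal cavity 4 days before collection, so the cells are macrophages drawn in by an irritant. Each diet had 2 libraries of total RNA depleted of ribosomal RNA. Nothing in the labels tells if a library is 1 mouse or a pool, so p-values measure only the spread between libraries, which may be technical. The age and sex of the mice were not analysed here.

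Type I interferons bind a receptor on the cell surface whose kinases JAK1 and TYK2 phosphorylate transcription factors, STAT2 among them. STAT2 acts with IRF9 in a complex that binds a DNA element, the interferon-stimulated response element (ISRE), in front of many genes. Among their products are proteins that bind or degrade viral RNA, sensors that detect it, and IRF7, which raises further interferon production. Macrophages keep a low level of this programme without infection and raise it strongly on exposure to viral or bacterial products.

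The ISRE is a tandem repeat, and its core was searched on both strands as TTTC, any 2 bases and TTTC again, in promoter windows from 250 bases before to 50 bases after a gene's start (RefSeq sequences, build GRCm38.p6; counts and gene models are on mm9). Windows were given for 21 of the 29 genes. The core was found in 13 of these 21, or 61.9%, and in 3.99% of the 27025 genes with a window. The longer form, the core preceded by AG, was found in 6 of the 21 and in 0.303% of all genes with a window. The TATA box TATAAA was found in 5 of the 21 and in 15.7% of all. These are matches of letters, without a measurement of binding. A gene with several starts was counted when any of its windows held the motif. The stretches below are shown because their genes differed widely (Ifit1, Ifit3, Oas3) or hardly (Bst2) between the high-fat libraries, because that of Isg15 holds overlapping matches, and because those of Oas1a and Oas1g are nearly the same; capitals mark the matches to the core, on the strand of the gene, 5′ to 3′.
Ifit1, chr19:34640765-34640833, plus strand: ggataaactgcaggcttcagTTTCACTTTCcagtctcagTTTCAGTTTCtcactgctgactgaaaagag
Ifit3, chr19:34583353-34583436, plus strand: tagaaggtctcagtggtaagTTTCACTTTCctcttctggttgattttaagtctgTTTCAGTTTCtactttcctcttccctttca
Isg15, chr4:156200855-156200916, minus strand: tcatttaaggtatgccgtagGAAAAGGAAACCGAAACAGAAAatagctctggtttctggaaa
Oas3, chr5:120777705-120777754, minus strand: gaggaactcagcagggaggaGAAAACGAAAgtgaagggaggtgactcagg
Oas1a, chr5:120907510-120907565, minus strand: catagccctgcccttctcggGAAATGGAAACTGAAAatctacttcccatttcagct
Oas1g, chr5:120887596-120887651, minus strand: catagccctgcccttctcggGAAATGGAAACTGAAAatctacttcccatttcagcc
Bst2, chr8:71537567-71537622, minus strand: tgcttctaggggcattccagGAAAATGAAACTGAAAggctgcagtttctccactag
Ifit1 and Ifit3 each held 2 separate matches, and Isg15 held 3 that overlap. The stretches of Oas1a and Oas1g differed at 1 of 56 positions.

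No antiviral gene passed the comparison of diets. In edgeR's quasi-likelihood test 0 of the 29 had an adjusted p under 0.05, while 0.612% of the 12747 genes kept by the low-count filter did; all 29 passed that filter. DESeq2 and limma-voom also called 0 of them, where they called 2.87% and 0.220% of all genes. By edgeR 4 of the 29 had an unadjusted p under 0.05, against 17.0% of all kept genes. With high-fat diet 24 of the 29 had a log2 fold change below 0 (50.8% of all kept genes), and their median was -0.17, against -0.0054 over all kept genes. Both high-fat libraries lay below both control libraries in 8 of the 29, or 27.6%, close to the 24.9% of all kept genes, and in no gene did both lie above; 26.1% of all kept genes were so placed. Those 8 were Oas1a, Oas2, Isg15, Mx1, Zbp1, Bst2, Parp14 and Slfn5. With 2 libraries against 2, an exact two-sided permutation test of a single gene cannot go below p = 0.333.

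The 2 high-fat libraries differed from each other in the same direction in nearly all of these genes. High-fat replicate 1 was above high-fat replicate 2 in 28 of the 29 genes, with 54.9% of all kept genes in that order, and the median difference was 0.36 on the log2 CPM scale (0.025 over all kept genes). CPM relates the reads of a gene to the TMM-adjusted size of its library. A difference of at least 0.5 in that direction was found in 9 of the 29 and in 6.47% of all kept genes, and none of the 29 differed as much the other way, where 6.83% of all genes did. For 24 of the 29 the ratio of replicate 1 to replicate 2 was above 1 beyond its exact 95% binomial interval, against 22.9% of all kept genes, and for 0 it was below 1, against 20.9%; such intervals cover counting error only and compare those 2 libraries, not conditions. In 26 genes high-fat replicate 2 was the lowest of the 4 libraries (31.9% of all kept genes). In 10 genes replicate 1 was the highest and replicate 2 the lowest, so that both control libraries lay between the high-fat ones, an order seen in 5.31% of all kept genes. In bulk RNA, fewer cells that express a gene and less RNA per cell cannot be told apart.

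Between the control libraries the median difference was smaller and of the opposite sign. This median, replicate 1 minus replicate 2, was -0.096 over the 29 genes (0.0081 over all kept genes), and 9 of the 29 were higher in control replicate 1, against 51.3% of all. A difference of at least 0.5 was found for Oas1g alone, in favour of replicate 2, a direction and size shared by 3.65% of all kept genes. The median size of the difference, whatever its sign, was 0.14 over the 29 genes in the control libraries and 0.17 over all kept genes. In the high-fat libraries it was 0.36 and 0.15.

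**Figure D1:**
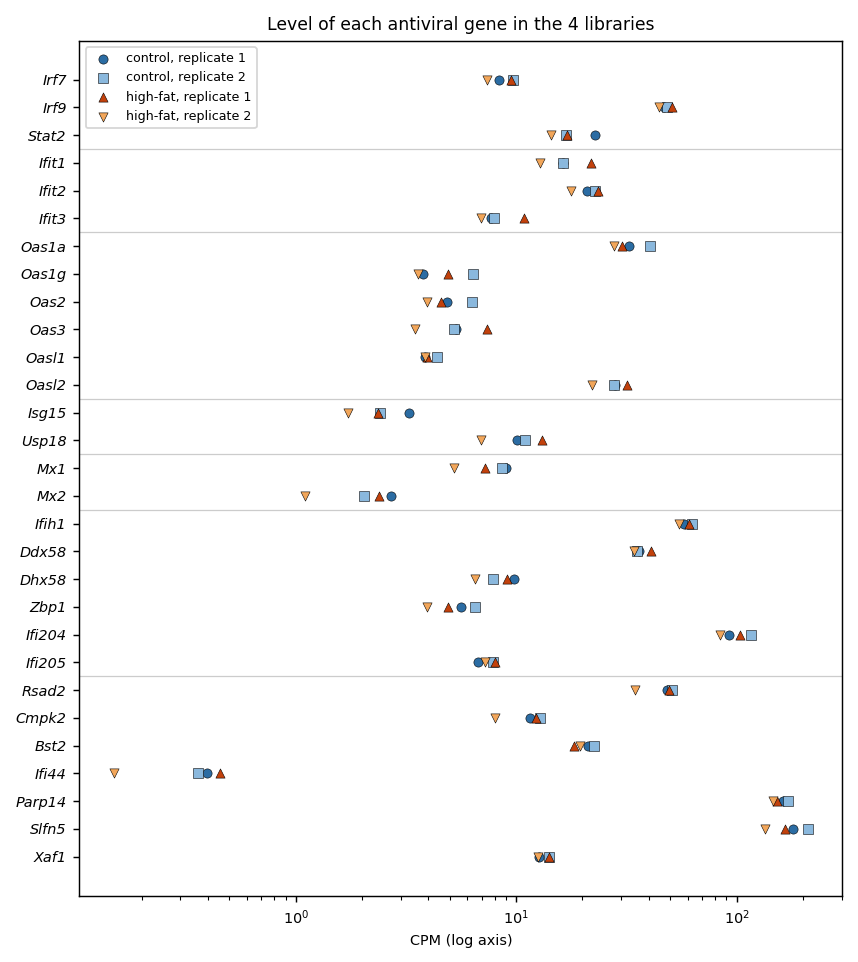
CPM (log axis) of each of the 29 antiviral genes in the 4 libraries, 1 symbol per library, with lines between the role groups. The downward triangles of high-fat replicate 2 lie leftmost in 26 of the 29 genes.

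The genes of the factors that carry the signal overlapped between the diets. Irf9, the DNA-binding subunit of the complex, stood at 47.1 and 48.3 CPM in control replicates 1 and 2 and at 50.7 and 44.5 CPM in high-fat replicates 1 and 2. Its log2 fold change was -0.0021 ± 0.10 (SE). Irf7, the factor that amplifies interferon production, stood at 8.37 and 9.66 CPM with control diet and at 9.50 and 7.38 CPM with high-fat diet. Stat2, the transactivating subunit, had 22.7 and 16.8 CPM in the control and 17.1 and 14.3 CPM in the high-fat libraries, and it was among the 3 genes for which control replicate 1 exceeded control replicate 2 beyond the counting interval (22.4% of all kept genes; the reverse held for 7 of the 29 and 22.9%). The other genes of that kind were Isg15 and Dhx58.

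Genes of the IFIT family, whose proteins bind foreign RNA and block its translation, were among those that set the high-fat libraries apart. They lie together on chromosome 19. Ifit1 (chromosome 19: 34715379 to 34724499, mm9, plus strand, 2 exon blocks) had 655 and 635 counts with control diet, and 1017 and 512 counts with high-fat diet, replicate 1 first as in every pair below. In CPM these were 16.3 and 16.4 against 21.9 and 12.8, so the control libraries nearly coincided and the high-fat libraries lay on either side of them. The ratio between the high-fat libraries was 1.71 (95% counting interval 1.54 to 1.90), while that between the control libraries was 0.995 (0.891 to 1.11). Averaged over the diet, this gave a log2 fold change of 0.092 ± 0.24 (edgeR adjusted p = 0.863). Ifit3 had the same layout, with 7.70 and 7.91 CPM in the control and 10.9 and 6.96 CPM in the high-fat libraries, and its log2 fold change of 0.20 was the highest of the 29. Ifit2, which differs from the others by binding AU-rich RNA, stood at 20.9 and 22.7 CPM with control diet and at 23.6 and 17.7 CPM with high-fat diet.

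The OAS family makes oligoadenylates that switch on RNase L, which cuts RNA. Its members differed in the order of the libraries. Oas3, which answers to long double-stranded RNA, stood at 5.34 and 5.23 CPM with control diet and at 7.41 and 3.48 CPM in the high-fat libraries, a ratio of 2.13 (1.74 to 2.61) between the latter. Its neighbour Oas2, with 3249 bases between the gene models, had 4.87 and 6.31 CPM with control diet and 4.59 and 3.93 CPM with high-fat diet; the diets did not overlap, and the interval of the ratio between the high-fat libraries (0.946 to 1.44) included 1. Oas1a stood at 32.7 and 40.5 CPM against 30.4 and 27.7 CPM, with a log2 fold change of -0.33 ± 0.13 (edgeR adjusted p = 0.243). It was the most abundant OAS gene per length, at 17.4 CPM per 1000 bases of exon averaged over the 4 libraries. Oas1g, its close relative on the same chromosome, stood at 3.78 and 6.39 CPM with control diet and 4.89 and 3.58 CPM with high-fat diet, and the counts of both are uncertain because reads that match more than 1 place were left out; their transcripts were not compared here. Of the OAS-like genes, of which OASL2 has kept the enzyme activity and OASL1 has lost it, Oasl2 stood at 28.1 and 27.95 CPM against 31.9 and 22.0 CPM, a ratio of 1.45 (1.33 to 1.58) between the high-fat libraries. Oasl1 stayed between 3.88 and 4.38 CPM in the 4 libraries.

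Isg15 encodes a ubiquitin-like protein that is attached to other proteins, and Usp18 the protease that removes it and also dampens signalling at the interferon receptor. Isg15 was scarce, with 132 and 94 counts under control diet, 110 and 69 under high-fat diet, or 3.28 and 2.42 CPM against 2.37 and 1.73 CPM. Each control library lay above each high-fat library, and the ratio of replicate 1 to replicate 2 was 1.35 with control diet and 1.37 with high-fat diet. Usp18 had 10.1 and 10.9 CPM in the control libraries and 13.1 and 6.93 CPM in the high-fat libraries. Its ratio between the high-fat libraries was 1.89 (1.63 to 2.18), and its diet means differed by a log2 fold change of -0.071 ± 0.28.

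The Mx genes encode dynamin-like GTPases that trap viral components. The Mx1 allele of C57BL/6, as of most laboratory strains, is known to carry a deletion and to make no working protein. Mx1 stood at 8.97 and 8.63 CPM with control diet and at 7.22 and 5.21 CPM with high-fat diet. The diets did not overlap, and the log2 fold change of -0.50 ± 0.19 was the lowest of the 29 (edgeR adjusted p = 0.234). Mx2 stood at 2.71 and 2.03 CPM against 2.39 and 1.10 CPM, with 111 and 44 counts in the high-fat libraries and a ratio of 2.17 (1.52 to 3.15) between them.

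In the sensors of nucleic acids high-fat replicate 1 exceeded replicate 2 by 0.14 to 0.49 on the log2 scale. Ifih1, encoding MDA5, a sensor of long double-stranded RNA, stood at 57.6 and 63.0 CPM with control diet, then 61.0 and 54.8 CPM in the high-fat libraries. Ddx58, encoding RIG-I, which senses uncapped RNA ends, stood at 36.2 and 35.2 CPM against 41.1 and 34.2 CPM. Dhx58, encoding LGP2, which modulates both, had 9.81 and 7.83 CPM with control diet and 9.13 and 6.48 CPM with high-fat diet, and the diets overlapped in all 3. Zbp1, a sensor of Z-form nucleic acid that can trigger cell death, had 5.61 and 6.52 CPM with control diet and 4.93 and 3.95 CPM with high-fat diet, with no overlap and a log2 fold change of -0.45 ± 0.19 (edgeR adjusted p = 0.286). Ifi204, a DNA-binding protein of the PYHIN family, was the most abundant of the 29 per length, at 43.2 CPM per 1000 bases; it stood at 92.3 and 117 CPM in the control and 104 and 83.9 CPM in the high-fat libraries. Ifi205, of the same family, stayed between 6.71 and 7.99 CPM. This family has other related genes on chromosome 1, whose transcripts were not compared here. Its counts are uncertain, since reads that match more than 1 place were left out.

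The remaining effectors held both the widest gap between the high-fat libraries and the only negative one, a gap being the log2 CPM of replicate 1 minus that of replicate 2. Rsad2, encoding viperin, which makes a chain-terminating nucleotide from CTP, had 1947 and 1969 counts under control diet, 2293 and 1379 under high-fat diet. In CPM it stood at 48.4 and 50.7 against 49.4 and 34.5, so that high-fat replicate 2 alone was apart from the other three. Cmpk2, a nucleotide kinase that lies beside Rsad2 on chromosome 12 with 12762 bases between the gene models, had the same layout, with 11.6 and 12.9 CPM in the control and 12.3 and 7.98 CPM in the high-fat libraries. Ifi44 had the largest log2 difference between the high-fat libraries, 1.33, but it rested on 21 and 6 counts, against 16 and 14 with control diet, and its ratio of 3.01 had a counting interval of 1.18 to 9.12. Bst2, encoding tetherin, which holds budding virus at the membrane, was the only gene higher in high-fat replicate 2, with 21.1 and 22.6 CPM under control diet and 18.4 and 19.4 CPM under high-fat diet. Its ratio of 0.945 (0.856 to 1.04) included 1.

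Parp14, an ADP-ribosyltransferase, and Slfn5, a nuclear Schlafen protein, were, with Ifi204 and Bst2, the 4 most abundant of the 29 per length, with 21.8 and 28.8 CPM per 1000 bases of exon averaged over the 4 libraries (Bst2 had 26.6). Parp14 stood at 163 and 172 CPM with control diet and at 152 and 146 CPM with high-fat diet. Slfn5 stood at 181 and 210 CPM against 165 and 135 CPM and had the smallest p of the 29, with a log2 fold change of -0.38 ± 0.13 (edgeR adjusted p = 0.189). The exons of Slfn5 overlap the antisense gene Slfn5os, which had 1 to 4 counts per library. The sources used here do not tell if counting used strand. Xaf1, a pro-apoptotic gene, stood between 12.6 and 14.2 CPM.

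**Figure D2:**
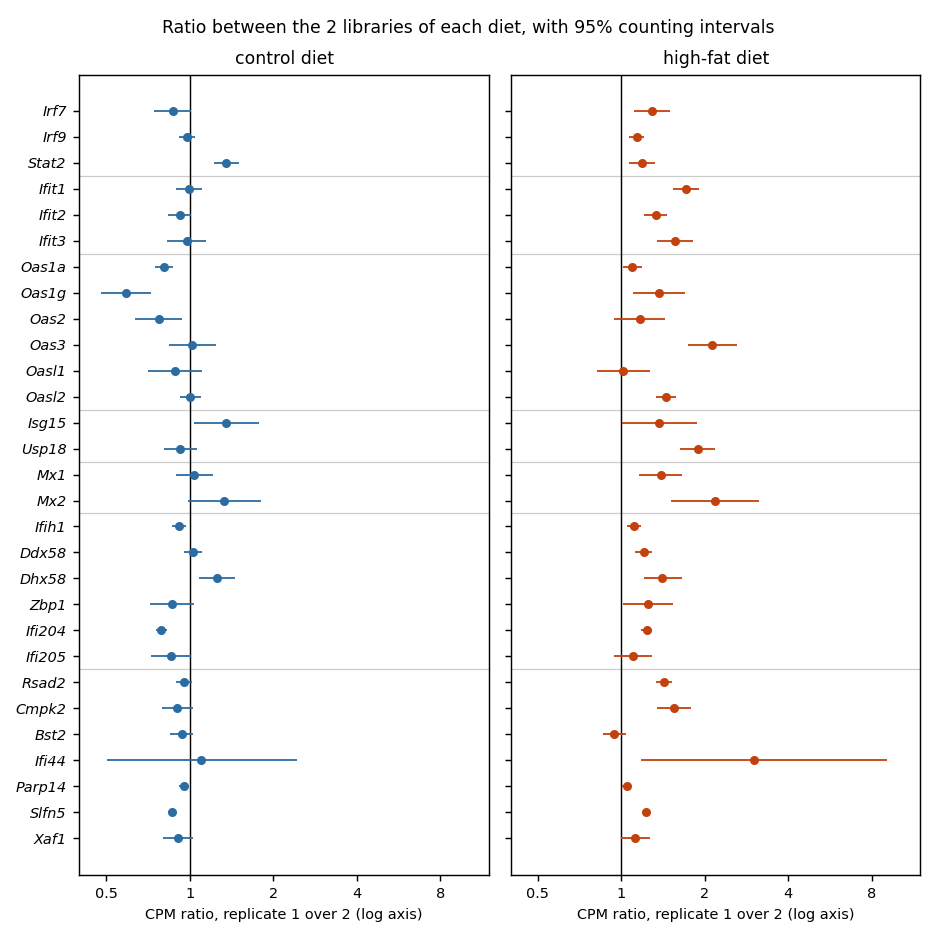
Ratio of CPM in replicate 1 to replicate 2 (log axis) for each antiviral gene, in the control libraries (left) and the high-fat libraries (right); bars are exact 95% intervals for counting error, and the vertical line marks equal levels. On the right 24 of 29 intervals lie wholly above 1 and none wholly below, while on the left 3 lie above and 7 below.

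Levels of the interferon genes themselves were at the limit of detection. Of 21 interferon genes 16 had no count in any library, and the 21 together had 13 and 5 counts with control diet, 11 and 4 with high-fat diet. Ifnb1, the interferon that macrophages make first, had 1 count in control replicate 1 and 0 in the other libraries, where 0 counts allow up to 3 counts, or 0.0646 to 0.0773 CPM. No interferon gene passed the low-count filter.

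Genes of the receptors, kinases and sensing proteins upstream stood nearer to all genes in the difference between the high-fat libraries. Of the 39 kept genes for receptors and kinases, for adaptors and IRFs of sensing, and for restraint of the signal, 23 were higher in high-fat replicate 1 (59.0%, near the 54.9% of all kept genes), with a median difference of 0.039. By edgeR, DESeq2 and limma-voom 0 of the 39 passed the comparison of diets, and 6 had an unadjusted p under 0.05 by edgeR (17.0% of all kept genes). With no low-count filter edgeR called Ikbke alone, as lower, or 1 of 46 genes tested, where 267 of 17380 over all genes were called lower. Those 46 also took in the interferon genes with any count, and the receptor and restraint genes that the filter had left out. In the receptor and kinase list 9 of 10 genes were kept; the genes with the smallest p were Il10rb, a shared chain of cytokine receptors (log2 fold change 0.17, adjusted p = 0.387 by edgeR), the receptor chain Ifnar1 (-0.14) and the receptor chain Ifngr1 (-0.14). In the sensing list all 17 genes were kept, led by the kinase gene Ikbke (-0.43, adjusted p = 0.139 by edgeR), Irf1 (-0.28) and the adaptor gene Ticam1 (-0.36). In the restraint list 13 of 14 were kept, led by the phosphatase gene Ptpn6 (-0.33, adjusted p = 0.166 by edgeR), the RNA editing enzyme gene Adar (-0.32) and Ptpn1 (-0.28).

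A list of 64 further interferon-stimulated genes, of which 63 were kept, was read in the same way. High-fat replicate 1 was above replicate 2 in 40 of the 63 (63.5%), with a median of 0.10. Replicate 1 was higher beyond the counting interval in 28 of the 63 (44.4%, against 22.9% of all kept genes) and lower beyond it in 12 (against 20.9% of all kept genes). High-fat replicate 2 was the lowest of the 4 libraries in 27 (42.9%, against 31.9%). A difference of at least 0.5 was found in 4 (6.35%), near the 6.47% of all kept genes, and the other way in 7 (11.1%, against 6.83%). Single genes had the layout of Ifit1: I830012O16Rik, a close copy of Ifit3 also named Ifit3b, stood at 1.17 and 1.24 CPM in the control and 1.90 and 1.001 CPM in the high-fat libraries, and Rtp4, a receptor transporter, at 18.1 and 18.6 against 23.7 and 16.7 CPM. Ly6a, encoding the surface protein Sca-1, had the reverse layout, at 7.18 and 7.78 CPM with control diet and at 6.27 and 21.2 CPM with high-fat diet. Ms4a4c was also highest in high-fat replicate 2, at 8.50 and 10.4 against 9.61 and 17.9 CPM, with high-fat replicate 1 between the control libraries. These 4 genes were chosen after their values were seen. By edgeR and by limma-voom 0 of the 63 passed the comparison of diets, and by edgeR 15 had an unadjusted p under 0.05 (17.0% of all kept genes did); those with the smallest p were Ifitm6 (log2 fold change -0.93, adjusted p = 0.0793), the macrophage lectin gene Siglec1 (-0.82, adjusted p = 0.0805) and Cd274, encoding PD-L1 (-0.41, adjusted p = 0.0816). DESeq2 called these 3 of the 63 as lower, and 2.87% of all genes in either direction.

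**Figure D3:**
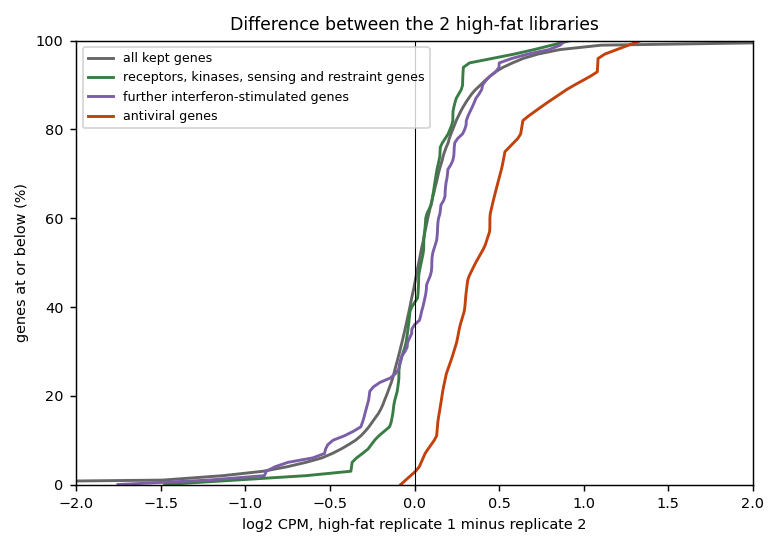
Cumulative share of genes (vertical axis, %) by the difference in log2 CPM between high-fat replicates 1 and 2 (horizontal axis, drawn from -2 to 2), for all kept genes, the 29 antiviral genes, 63 further interferon-stimulated genes and 39 genes of receptors, kinases, sensing and restraint. The curve of the antiviral genes crosses 50% at 0.36 and the other 3 cross it between 0.025 and 0.10.

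Summed levels of some marker lists, though not all, also differed between the high-fat libraries, and their part in the gap was not tested. Macrophage markers were abundant throughout, with 12 of 12 kept and a summed level of 26460 to 27496 CPM in the control, 20444 in high-fat replicate 1 and 24988 CPM in high-fat replicate 2. Lysozyme gene Lyz2 made up most of that sum, and the other 11 markers summed to 4366 to 4565, 4045 and 3993 CPM. Of the 12 macrophage markers 11 had a log2 fold change below 0 (50.8% of all kept genes), with a median of -0.22. By edgeR 1 of the 12 passed, as lower (0.612% of all kept genes passed in either direction). The 10 B cell markers summed to 62.2 to 65.8 CPM in the control libraries, 67.0 in high-fat replicate 1 and 171 CPM in high-fat replicate 2. For the T and NK cell markers, 9 of 12 kept, the sums were 9.14 to 11.5, 7.56 and 31.0 CPM in that order. Mesothelial and fibroblast markers, 10 of 12 kept, summed to 21.3 to 28.7, 175 and 86.4 CPM. Monocyte markers, 8 of 8 kept, summed to 255 to 316, 211 and 333 CPM, and neutrophil markers, 8 of 10 kept, to 90.9 to 93.8, 58.7 and 55.5 CPM. For classical dendritic cells (8 of 9 kept) the sums were 20.7 to 23.4, 14.1 and 25.96 CPM, and for eosinophils and mast cells (7 of 10 kept) 71.9 to 79.1, 61.3 and 80.1 CPM. All 10 kept genes of the B cell list, and of the mesothelial and fibroblast list, had a log2 fold change above 0, and by edgeR 1 in each list passed. In the neutrophil list all 8 kept genes lay below 0, and by edgeR 2 of them passed. Members of the classical dendritic cell list, and of the eosinophil and mast cell list, differed in direction. Cd209a, a lectin gene of dendritic cells, fell with high-fat diet from 4.27 and 3.55 to 0.625 and 0.926 CPM (log2 fold change -2.34, adjusted p = 0.016 by edgeR), while Ccr7 and Dpp4 were highest in high-fat replicate 2, at 10.6 CPM each. The eosinophil genes Ccr3 and Siglecf had log2 fold changes of -2.22 and -1.32 and did not pass, while Il5ra stood at -0.073. Mast cell genes Cpa3 and Cma1, at 0.11 and 0.10, held most of the sum of that list, and Tpsb2 stood at -0.29. Of its 7 kept genes 4 lay below 0 and 3 above. Markers of plasmacytoid dendritic cells, known as strong producers of type I interferon, were scarce: 7 of 10 were kept, and the list summed to 39.5 to 42.0, 37.8 and 49.8 CPM. No marker that matched a gene of the counts was at 0 in all 4 libraries. Most of that sum was Tcf4, at 26.7 to 32.4 CPM. The defining gene Siglech had 40 and 27 counts with control diet, 7 and 10 with high-fat diet (log2 fold change -2.08, adjusted p = 0.079 by edgeR), while 5 of the 7 kept genes had a log2 fold change above 0 and the median of the 7 was 0.37.

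Leaving out 1 library turned the direction of the diet comparison in 11 genes without high-fat replicate 2, in 4 without high-fat replicate 1, in 7 without control replicate 2 and in 1 without control replicate 1. Without high-fat replicate 1, 28 of the 29 log2 fold changes were below 0, with a median of -0.40. In that fit 12 of the 29 had an unadjusted p under 0.05 (19.2% of all genes tested), and 4 passed as lower by edgeR (2.98% of all genes tested passed in that direction): Mx1 at -0.76 (adjusted p = 0.0363), Mx2 at -1.10 (0.0371), Rsad2 at -0.52 (0.0284) and Slfn5 at -0.54 (0.0102). Without high-fat replicate 2, 16 of the 29 were above 0, with a median of 0.011, and 0 passed (3.81% of all genes tested did, in either direction); 3 had an unadjusted p under 0.05 (12.0% of all genes tested). Leaving out a control library gave medians of -0.21 without replicate 1 and -0.060 without replicate 2, with 0 of the 29 called in both (0.114% and 0.136% of all genes tested). In each of these fits the lone library of a diet is assumed to vary like the other pair.

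**Figure D4:**
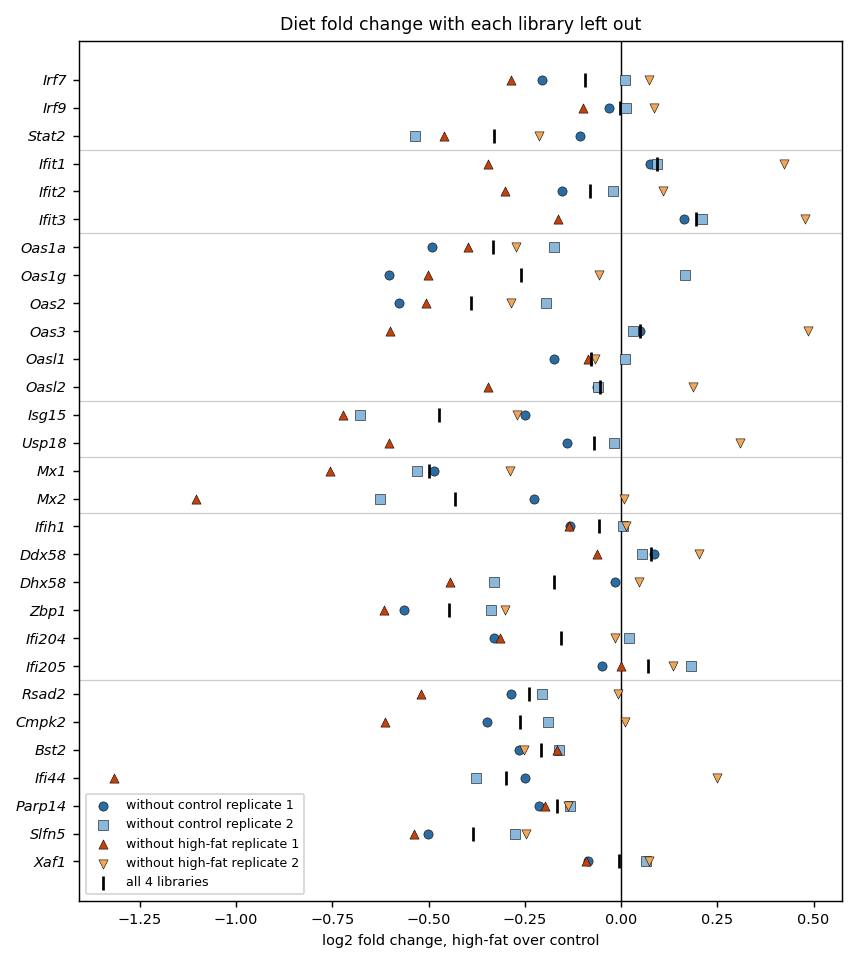
Log2 fold change of each antiviral gene, high-fat over control, with all 4 libraries (bars) and with each library left out (symbols); the vertical line marks no difference. Symbols for the fits without high-fat replicate 1 lie left of the line in 28 genes, and those without high-fat replicate 2 lie right of it in 16.

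The median gap was no larger in genes with a match to the ISRE core near their start. Between the high-fat libraries it was 0.30 over the 13 genes with a match and 0.39 over the 8 genes whose window held none, among them Ifi44, Cmpk2 and Oasl2. For the 8 genes with no window, which include Usp18 and Mx2, it was 0.39. No match says only that these letters are not in this window.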

How the data were processed

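Raw counts of reads per gene were deposited by the authors without normalization, 1 table per library. The submitters' processing notes name TopHat2 2.0.10, Cufflinks 2.1.1, HTSeq and mm9, and give neither settings nor strand handling. The other deposited file holds the authors' gene models, which gave exon positions and lengths. Libraries held 39347347 to 45658551 reads on genes. Lines that name no gene were left out. Of the total over all lines, 37.5% to 48.5% was on the line for alignments that were not unique. The line for no gene held 13.5% to 15.0%, and that for ambiguous reads 0.664% to 0.823%. The filter was filterByExpr (edgeR 4.0.16; minimum count 10, minimum total 15). Diets were compared over all 12747 kept genes with edgeR's quasi-likelihood test, robust, with TMM scaling, diet as the only term and 2 residual degrees of freedom; adjustment was by Benjamini-Hochberg, threshold 0.05. A standard error is |log2 fold change| over the root of F. Replicate differences use log2 CPM with a prior count of 2, and ratios use CPM. Alternatives were DESeq2 1.42.0, limma-voom (limma 3.58.1), other scalings and filters, a replicate block and each library left out. The fitting code was tested on simulated data. All list members are named, and from each pathway list the 3 genes with the smallest p where fewer passed; Ifnb1, I830012O16Rik, Rtp4, Ly6a and Ms4a4c are named outside that rule, and 1 gene is not reported here. Members, lists and tests were chosen with earlier results of these data known.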

Additional observations from a re-analysis of the deposited data

How the results depend on the processing

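The count of all genes called was 78 by edgeR and moved to 366 with DESeq2, 522 with no low-count filter, 46 with a CPM filter (1 CPM in 2 libraries) and 28 with limma-voom; without each library in turn it ran from 15 (without control replicate 1) to 831 (without high-fat replicate 1). The 0 antiviral genes called stayed 0 in every fit run except without high-fat replicate 1, where 4 were called. Of the other interferon pathway genes 0 were called, against 3 with DESeq2, 8 with no low-count filter, 1 with the trend on GC content and exon length removed (an alternative chosen after seeing the data) and 0 to 12 without each library. The median log2 fold change of the antiviral genes lay between -0.40 and 0.011 without each library, and their median difference between the high-fat libraries between 0.32 (CPM filter) and 0.43 (GC and length trend removed).

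Single genes near 0 reversed: Irf9 (0.0038) and Xaf1 (0.00069) with library totals only, Oas3 with limma-voom (-0.031) and with a replicate block (-0.032), and Ifit1 (-0.042), Oasl1 (0.027) and Ifi205 (-0.12) with the GC and length trend removed. Without each library in turn 19 genes changed sign. Their log2 fold changes ran from -0.35 to 0.42 for Ifit1, -0.30 to 0.11 for Ifit2, -0.16 to 0.48 for Ifit3, -0.29 to 0.073 for Irf7, -0.098 to 0.086 for Irf9, -0.60 to 0.16 for Oas1g, -0.60 to 0.48 for Oas3, -0.17 to 0.010 for Oasl1, -0.35 to 0.19 for Oasl2, -0.60 to 0.31 for Usp18, -1.10 to 0.0084 for Mx2, -0.14 to 0.014 for Ifih1, -0.062 to 0.20 for Ddx58, -0.44 to 0.047 for Dhx58, -0.33 to 0.019 for Ifi204, -0.050 to 0.18 for Ifi205, -0.61 to 0.011 for Cmpk2, -1.32 to 0.25 for Ifi44 and -0.091 to 0.073 for Xaf1. The cause was not tested.

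Replicate numbers do not pair the samples by the labels, and the differences between replicates 1 and 2 of the diets correlated at r = 0.089 across 12747 genes, which are not independent. With a replicate block 113 genes and 0 antiviral genes were called.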
